A study of Mus musculus with 19 samples.

Results

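The 33 genes described here are interferon-stimulated genes, measured by RNA sequencing in the cerebral cortex of male P301S/E4 mice. They were taken as a fixed list of names (3 nucleic acid sensors, 3 signalling factors, 8 regulators, 4 Ifit genes, 4 Oas genes, 8 further antiviral effectors and 3 guanylate-binding proteins). Each of the 33 matched 1 of the 55487 genes in the deposited tables. All 33 also passed the low-count filter that left 19105 genes for testing. The series holds 19 libraries, 10 from mice given lemborexant and 9 from mice given vehicle. Lemborexant, a drug that blocks both orexin receptors and is used against insomnia, was given by gavage at 30 mg/kg daily at zeitgeber time 13 from 7.5 to 9.5 months of age. Controls received the vehicle, 0.5% methylcellulose, and the tissue came from mice aged 41 weeks. Every library, control or treated, was labelled as male and P301S/E4, a genotype named for a mutant human tau and the E4 form of apolipoprotein E. The labels do not name the promoter of the tau transgene. They also do not state that the libraries stem from different animals, and the p-values below therefore reflect library-to-library spread, part of which may be technical.

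Interferons are secreted when cells sense foreign or misplaced nucleic acid. Type I interferons bind the Ifnar1 and Ifnar2 receptor, whose kinases activate Stat2, which acts with Irf9 in a complex that binds the interferon-stimulated response element of its target genes. Interferon gamma acts through Ifngr1 and Ifngr2. In brain, microglia and astrocytes are known to switch these genes on, including in mice with tau or amyloid pathology.

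Libraries held 20185098 to 31795633 reads on genes. Of the 19, 4 had almost no Cst7, a cystatin that disease-associated microglia make: vehicle 1 and 4 and lemborexant 1 and 10, at 0 to 0.253 CPM (reads scaled to the size of the library). The other 15 (8 lemborexant, 7 vehicle) had 16.4 to 144 CPM. Mapt, the tau gene, read 311 to 468 CPM in the 4 and 574 to 1046 in the 15, without overlap, although all 19 carry the same genotype label. This division comes from a measured gene and not from the labels, so the values on its sides are given as a description, with no test. In addition, 3 pairs of lemborexant libraries (1 and 10, 3 and 8, 4 and 9) were nearly alike. Their chi-square per degree of freedom over genes was 3.08 to 3.66, while all 168 remaining pairs lay between 12.2 and 274. The median absolute log2 difference over the 33 genes was 0.16, 0.12 and 0.09 in these pairs, against 0.16 to 1.97 in 26 other pairs of lemborexant libraries with Cst7 of at least 1 CPM.

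The promoters show what many of these genes share by sequence. RefSeq windows on GRCm38.p6, from 250 bases before to 50 bases after each start, were at hand for 25 of the 33 genes. The core of the response element, GAAANNGAA read on either strand, occurred in 17 of these 25 (68%), against 9.76% of 27025 genes with a window of the same length. A form with 1 more A at its end was searched first, and the motif was shortened after its shares had been seen. The gamma-activated motif TTCNNNGAA, which reads the same on both strands, occurred in 6 of the 25 (24%), against 9.55% of all genes. In the Bst2 window a match to the second motif overlaps a match to the first. Windows without the first motif belonged to Irf7, Irf9, Herc6, Xaf1, Ifi35, Ifit2, Oasl2 and Cmpk2, which says only that these letters were not in the window. No window was at hand for Zbp1, Usp18, Rtp4, Parp14, Oas2, Mx1, Ifi27 and Ifi27l2a.

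The 200 bases before the start are printed for 6 genes, 5′ to 3′ on the gene's own strand, with each match to GAAANNGAA on either strand in capitals. Isg15, Ifit1, Ifit3, Bst2 and Gbp3 stand for regulators, the Ifit cluster, membrane restriction and guanylate-binding proteins, and Cmpk2 is shown because its level varied least between libraries and its window holds no match.
Isg15, chr4:156200819-156201018, minus strand: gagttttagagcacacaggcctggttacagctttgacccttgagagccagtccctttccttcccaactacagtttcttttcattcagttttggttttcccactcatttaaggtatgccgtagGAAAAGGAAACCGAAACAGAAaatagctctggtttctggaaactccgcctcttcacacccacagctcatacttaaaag
Ifit1, chr19:34640689-34640888, plus strand: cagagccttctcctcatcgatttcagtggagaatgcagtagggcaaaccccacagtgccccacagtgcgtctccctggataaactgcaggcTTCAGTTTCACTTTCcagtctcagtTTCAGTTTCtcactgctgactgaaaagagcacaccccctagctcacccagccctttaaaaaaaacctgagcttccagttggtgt
Ifit3, chr19:34583329-34583528, plus strand: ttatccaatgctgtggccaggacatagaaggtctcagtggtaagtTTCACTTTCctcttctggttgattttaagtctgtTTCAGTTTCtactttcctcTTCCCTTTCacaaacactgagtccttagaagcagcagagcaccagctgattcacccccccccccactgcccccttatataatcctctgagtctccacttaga
Bst2, chr8:71537473-71537672, minus strand: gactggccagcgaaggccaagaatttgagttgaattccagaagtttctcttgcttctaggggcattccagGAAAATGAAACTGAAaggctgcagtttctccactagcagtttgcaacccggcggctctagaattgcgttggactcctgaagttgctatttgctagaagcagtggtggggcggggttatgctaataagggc
Gbp3, chr3:142559844-142560043, plus strand: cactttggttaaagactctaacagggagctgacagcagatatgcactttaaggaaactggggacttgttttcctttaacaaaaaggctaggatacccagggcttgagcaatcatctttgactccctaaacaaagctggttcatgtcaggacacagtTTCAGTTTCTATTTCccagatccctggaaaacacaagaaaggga
Cmpk2, chr12:26469015-26469214, plus strand: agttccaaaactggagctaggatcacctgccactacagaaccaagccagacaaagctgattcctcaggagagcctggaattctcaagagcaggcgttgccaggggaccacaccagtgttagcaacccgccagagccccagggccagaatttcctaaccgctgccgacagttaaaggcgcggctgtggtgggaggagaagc
Isg15 has 3 overlapping matches, which begin 78, 72 and 66 bases before the start. Ifit1 has 3, at 109, 103 and 84 bases, and Ifit3 has 3, at 155, 121 and 102 bases. Bst2 has 2 overlapping matches at 130 and 124 bases, and Gbp3 has 2 at 44 and 38 bases. A match is a description of letters and not evidence that a factor is bound there.

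The genes were low in the same 4 libraries as Cst7. For 30 of the 33, every one of the 15 libraries was above every one of the 4, and no gene lay the other way. Among all 19105 genes tested, 6.33% were placed that way and 2.27% the opposite way. The exceptions were Stat2, Cmpk2 and Ifi27, for which 13, 13 and 14 of the 15 libraries were above all 4. The ratio of the medians was computed for the 30 genes with at least 20 reads in the 4 libraries together. It ran from 1.26 for Cmpk2 to 28.8 for Ifi44, with a median of 7.92, and it was over 10 for 12 genes. The low-count filter was set by the treatment groups, so a gene read only in the 4 libraries could fail it. A gene read only in the 15 could pass, and the shares of all genes placed higher and lower are not on an equal footing. Zbp1, Oas3 and Mx1, with 7, 12 and 13 reads in the 4 together, count among the 30 that did not overlap. In bulk tissue, fewer cells of a type and less RNA per cell cannot be told apart.

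**Figure D1:**
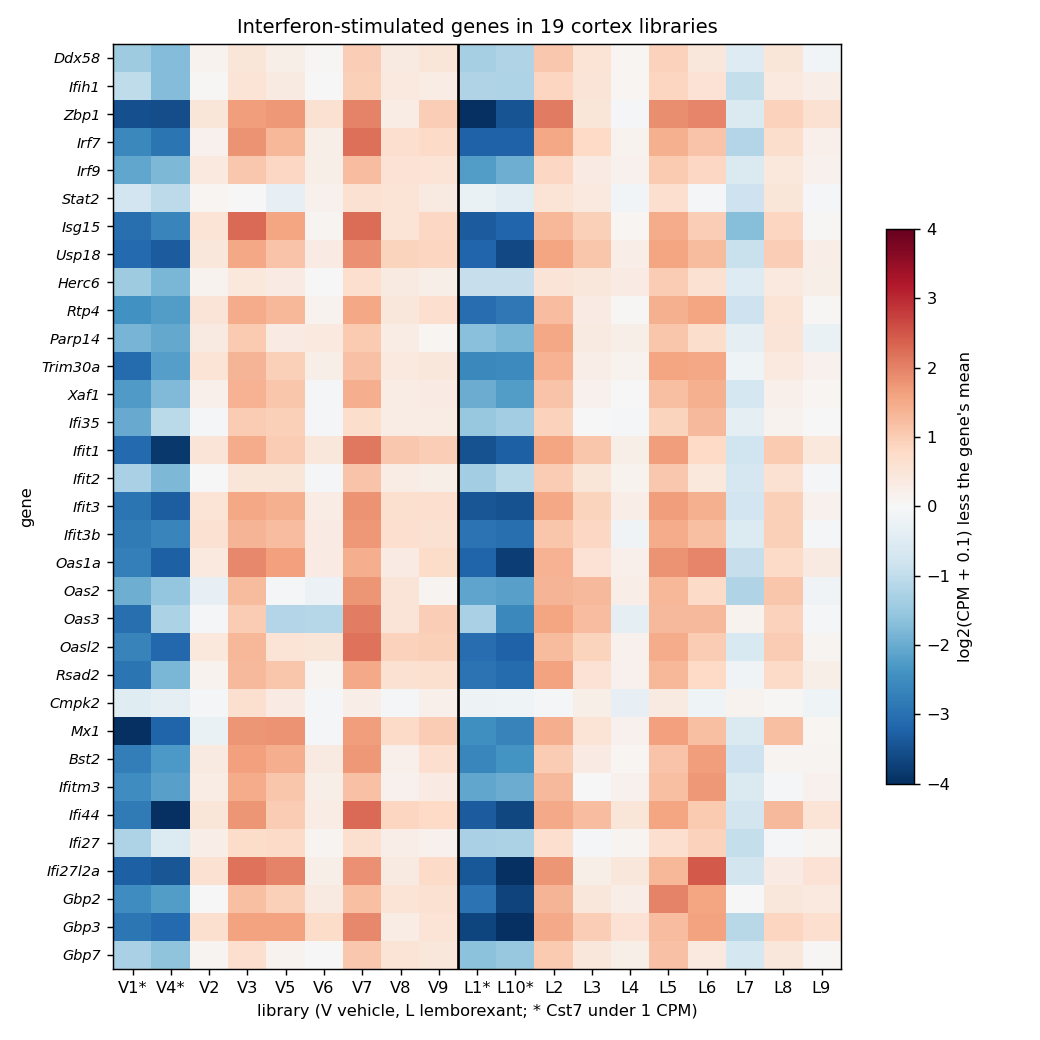
Each gene (vertical axis) in each of the 19 libraries (horizontal axis; V vehicle, L lemborexant, asterisk for Cst7 under 1 CPM), coloured by log2(CPM + 0.1) less the gene's mean, with differences past 4 drawn at the end of the scale. The 4 libraries with an asterisk are blue for nearly every gene, Cmpk2 and Stat2 are pale throughout, and lemborexant 7 is the palest to bluest of the other 15.

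Levels of different genes were compared in TPM, which also scales reads to transcript length. Averaged over the 19 libraries, Ifitm3 was highest at 425 TPM, followed by Ifi27 at 338 TPM. Ifi27l2a (94.2 TPM), Ifit3 (92.6 TPM), Bst2 (79.5 TPM) and Isg15 (59.1 TPM) came next. The lowest was Oas3 at 0.34 TPM, the only gene of the 33 under 1 TPM. Ifitm3 and Ifi27 differed from each other by less than the SD between libraries (262 and 130 TPM), and so did neighbours among the 4 genes after them (SD 45.5 to 72.3 TPM). The median of Ifitm3, for instance, was 73.1 TPM in the 4 Cst7-low libraries and 410 TPM in the other 15. That of Ifi27 was 140 TPM and 369 TPM, so that Ifi27 lay above Ifitm3 by median in the 4 Cst7-low libraries.

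The sensors are taken first. Ddx58 encodes RIG-I and Ifih1 encodes MDA5, which detect viral RNA in the cytoplasm, and Zbp1 binds Z-form nucleic acid and can start necroptosis. Throughout, 4 values in a row stand for vehicle 1, vehicle 4, lemborexant 1 and lemborexant 10. Ddx58 read 5.05, 3.998, 5.31 and 5.82 CPM there and 9.52 to 28.7 CPM (median 18.5) in the other 15 libraries. Ifih1 read 3.39 to 5.64 CPM in the 4 and 5.82 to 22.2 CPM (median 14.9) in the 15, so that its ranges almost touched. Zbp1 had 7 reads in all 4 libraries together, and 1.44 to 9.49 CPM (median 4.24) in the 15. All 3 sensors thus lay higher in the 15, by ratios of medians of 3.57 for Ddx58 and 3.06 for Ifih1.

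The signalling factors differed among themselves. Irf7, the interferon regulatory factor that amplifies the type I response, read 4.56, 3.53, 2.83 and 2.82 CPM in the 4 libraries and 12.2 to 127 CPM (median 46.6) in the 15, a ratio of medians of 14.7. Irf9, the DNA-binding subunit of the complex with Stat2, read 6.802 to 9.17 CPM against 21.6 to 76.8 CPM (median 47.5), a ratio of 6.01. Stat2, its partner, read 17.1, 14.1, 24.3 and 22.02 CPM in the 4 and 16.5 to 46.6 CPM (median 32.8) in the 15, a ratio of only 1.68 with overlapping ranges. Stat2 was at 16.5 CPM in lemborexant 7, which is below 3 of the 4 Cst7-low libraries. Irf7 overlaps Phrf1 on the opposite strand, at 32.3 CPM, and without a stated strand setting reads of the overlap cannot be told apart. Irf9 overlaps Rnf31 on the same strand, at 17.9 CPM, so the division of reads in that overlap is uncertain.

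Of the 8 regulators, all lay higher in the 15 libraries without overlap. Isg15, a ubiquitin-like protein that is attached to other proteins, read 1.81, 2.399, 1.45 and 1.63 CPM in the 4 and 4.71 to 74.7 CPM (median 28.2) in the 15. Usp18, which removes Isg15 and dampens the interferon receptor, read 2.17 to 3.09 CPM against 14.7 to 97.5 CPM (median 53.9). These were the regulators with the largest ratios of medians, 16.4 for Isg15 and 19.3 for Usp18. Herc6, the ligase that attaches Isg15 in mice, had a smaller ratio of 2.88, with 3.998 to 7.57 CPM in the 4 and 10.2 to 29.5 CPM (median 18.6) in the 15. Rtp4, a chaperone of receptors at the cell surface, read 2.56 to 4.56 CPM against 12.4 to 65.4 CPM (median 32.03). Trim30a, a ubiquitin ligase that restrains inflammatory signalling, read 1.23 to 2.305 CPM against 9.705 to 33.3 CPM (median 15.1). Their ratios of medians were 9.27 for Rtp4 and 8.49 for Trim30a. Rtp4 overlaps Masp1 on the opposite strand, at 10.7 CPM. Parp14, an ADP-ribosyltransferase, read 0.988 to 1.299 CPM against 3.34 to 13.02 CPM (median 5.64). Xaf1, a partner of the apoptosis inhibitor Xiap, read 4.27 to 6.21 CPM against 12.9 to 58.2 CPM (median 25.95). Ifi35 read 4.27 to 8.23 CPM against 13.5 to 43.2 CPM (median 21.7). The ratios of Parp14, Xaf1 and Ifi35 were 4.94, 5.36 and 3.45.

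The 4 Ifit genes lie together on chromosome 19 and encode proteins that bind foreign RNA and block its translation. Ifit3 was the most abundant of them per length, and read 9.37, 7.24, 6.61 and 6.36 CPM in the 4 libraries and 42.5 to 253 CPM (median 135) in the 15. Ifit1 read 2.26 to 3.87 CPM against 19.8 to 149 CPM (median 70.1), and Ifit3b 4.52 to 5.88 CPM against 25.7 to 125 CPM (median 66.97). Ratios of medians were 21.6 for Ifit1, 19.5 for Ifit3 and 13.5 for Ifit3b. Ifit2, in the same cluster, had a ratio of 3.39, and its 4 values, 7.99, 5.597, 7.57 and 9.401 CPM, were closer to the 12.3 to 43.7 CPM (median 26.4) of the 15. Ifit3 and Ifit3b are close copies, so the division of reads between them is uncertain. Ifit3b took 27.7% to 37.6% of their joint reads in the 15 libraries and 35.5% to 44.8% in the 4.

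Oas proteins make short adenylate chains that activate RNase L, and their genes differed widely in level. Oasl2, a family member best known as a partner of RNA sensing, was the highest, at 3.797 to 5.69 CPM in the 4 libraries and 24.2 to 166 CPM (median 69.6) in the 15. Oas1a read 0.434 to 0.981 CPM against 3.77 to 27.8 CPM (median 11.97). Oas2 read 0.362 to 0.611 CPM against 0.796 to 7.004 CPM (median 2.87). Ratios of medians were 16.4 for Oasl2, 17.8 for Oas1a and 6.97 for Oas2, and none of these ranges overlapped. Oas3 had 12 reads in the 4 libraries together and 0.2604 to 3.25 CPM (median 1.43) in the 15, so that the 0.235 CPM of vehicle 4 lay close to the 0.2604 CPM of vehicle 5. Oas1a and Trim30a, like the guanylate-binding genes, have close relatives in the genome, and the division of reads among them is uncertain.

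The antiviral effectors held both ends of the range. Ifi44, an interferon-induced protein with antiviral activity, had the highest ratio of medians of the 30 genes with a ratio, 28.8. It read 0.588, 0.0941, 0.382 and 0.289 CPM in the 4 libraries and 2.82 to 23.1 CPM (median 9.68) in the 15. Rsad2 encodes viperin, which turns CTP into a chain terminator for viral polymerases. It read 0.687 to 1.79 CPM against 5.94 to 20.2 CPM (median 10.4), a ratio of 13.4. Cmpk2, a mitochondrial nucleotide kinase whose gene lies next to Rsad2 and is read away from it on the opposite strand, differed least of the 30. It read 16.2, 17.6, 19.7 and 20.2 CPM in the 4 libraries and 18.3 to 35.4 CPM (median 23.5) in the 15. On GRCm38 by GENCODE, Rsad2 spans 26442746 to 26456452 and Cmpk2 spans 26469204 to 26479837 of chromosome 12.

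The remaining effectors ranged widely in level. Ifitm3, which keeps viruses from fusing with endosomal membranes, read 23.5, 29.1, 31.5 and 33.2 CPM in the 4 libraries and 88.3 to 442 CPM (median 162) in the 15, a ratio of 5.36. Bst2, or tetherin, which holds budding virus at the cell surface, read 3.92, 5.503, 4.43 and 5.17 CPM against 15.4 to 91.2 CPM (median 35.3), a ratio of 7.35. Mx1, a dynamin-like GTPase that blocks influenza, had 13 reads in the 4 libraries together and 1.102 to 6.16 CPM (median 3.505) in the 15; many laboratory strains carry a defective Mx1 allele, and whether these mice do is not given in the sources used here. Another neighbouring pair on chromosome 12 gave unlike values. Ifi27l2a read 1.23, 1.08, 1.11 and 0.579 CPM against 7.56 to 69.2 CPM (median 19.4), a ratio of 17.7. Ifi27, which stands beside it, read 71.1, 114, 68.4 and 68.8 CPM against 87.3 to 316 CPM (median 199), a ratio of 2.84. Vehicle 4, at 114 CPM, was above lemborexant 7, at 87.3 CPM, which is the overlap of Ifi27.

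The 3 guanylate-binding proteins, GTPases that attack the vacuoles of intracellular microbes and answer strongly to interferon gamma, are encoded together on chromosome 3. Gbp3 read 3.73, 3.15, 2.14 and 1.63 CPM in the 4 libraries and 12.9 to 108 CPM (median 50.7) in the 15, a ratio of 19.2. Gbp2 read 1.19 to 3.53 CPM against 16.8 to 66.8 CPM (median 24.6), a ratio of 9.74. Gbp7 had the smallest difference of the 3, with 7.64 to 9.76 CPM against 14.9 to 55.2 CPM (median 33.2) and a ratio of 4.08. None of their ranges overlapped.

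**Figure D2:**
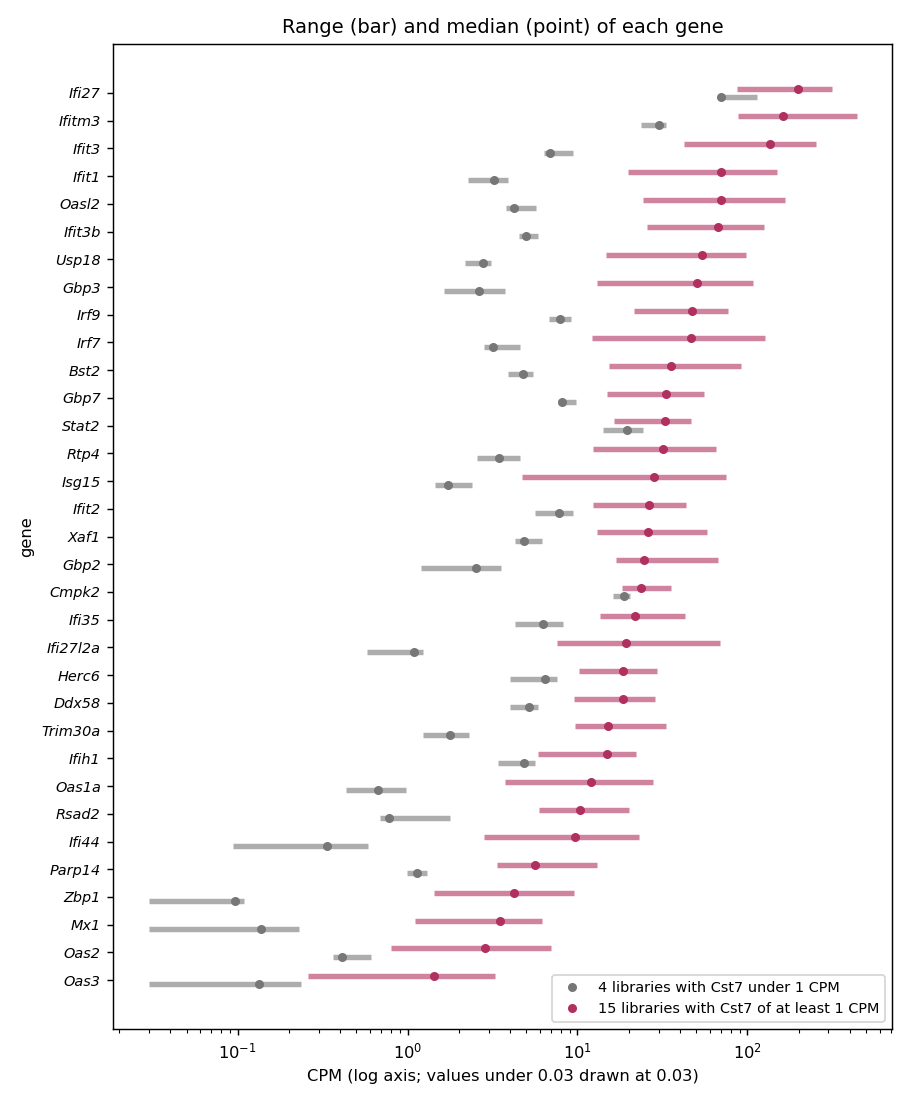
Range (bar) and median (point) of each gene (vertical axis) in CPM on a log axis, for the 4 libraries with Cst7 under 1 CPM (grey) and the other 15 (red). The bars are apart for 30 of the 33 genes and overlap for Stat2, Cmpk2 and Ifi27.

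Markers of microglia and astrocytes also differed along the same division. Over all genes tested, 6.33% were higher in the 15 without overlap and 2.27% lower. Besides Cst7, which set the division, 7 markers of disease-associated microglia summed to 114 to 152 CPM in the 4 libraries and 332 to 1662 in the 15, and 6 of the 7 did not overlap. The 6 homeostatic microglia markers summed to 298 to 442 CPM against 565 to 1501, with 3 of 6 not overlapping. For 6 astrocyte markers the sums were 2034 to 2892 CPM and 5043 to 12296, with 4 of 6 not overlapping. Gfap, the intermediate filament of reactive astrocytes, made up most of the difference in these sums, at 430 to 582 CPM against 3023 to 8699, and the other 5 astrocyte markers summed to 1542 to 2311 CPM against 2020 to 3597, with overlap. Of these 5, 3 did not overlap when taken singly. Their ratios of medians were 3.77 for Aqp4, 2.04 for S100b, 1.72 for Gja1, 1.5 for Aldh1l1 and 1.02 for Slc1a2, the glutamate transporter. The 6 T and NK cell markers summed to 0.7996 to 5.31 CPM against 5.44 to 27.8, with 4 of 6 not overlapping. Cd3g, Cd3d, Cd8a and Nkg7 had no read in at least 1 of the 4 libraries. Trbc2, with the highest mean of the 6 markers, overlapped. It read 0.687, 0.564, 4.93 and 4.48 CPM in the 4 and had a median of 2.99 CPM in the 15. Only 4 of the 15 libraries were above all 4 for Trbc2, and its ratio of medians was 1.16. Cd3d overlapped too, with 14 of the 15 above all 4. The 6 neuronal markers summed to 6188 to 7154 CPM in the 4 and 2481 to 5654 in the 15, but only 1 of 6 did not overlap. It was Snap25, the largest part of the sum, at 4597 to 5363 CPM against 1592 to 4045, while Gad2 had a ratio of medians of 1.07. The 4 oligodendrocyte markers summed to 3804 to 6609 CPM against 4435 to 12292, and 1 of the 4 did not overlap. Of 5 endothelial markers, 0 were placed apart, which is near the share over all genes. The part of these cells in the values of the 33 genes was not tested.

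The genes also varied within the 15 libraries. The ratio of the highest to the lowest library ran from 1.94 for Cmpk2 to 15.8 for Isg15, with a median over the 33 genes of 5.01. Lemborexant 7 was the lowest of the 15 for 31 genes. The exceptions were Cmpk2, lowest in lemborexant 4, and Oas3, lowest in vehicle 5. At the other end, vehicle 7 was the highest for 15 genes, among them Ifit1, Ifit3, Oasl2, Irf7 and Gbp3, and among the top 3 for 25. Lemborexant 6 was the highest for 6, among them Ifitm3, Ifi27, Ifi27l2a, Rtp4 and Oas1a, and lemborexant 5 for 5, Gbp2 and Trim30a among them. Libraries high for the Ifit genes were therefore not always those high for the Ifitm3 and Ifi27 genes: vehicle 7 read 253 CPM of Ifit3 and 297 of Ifitm3, whereas lemborexant 6 read 192 and 442.

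Within the 15, the order by Cst7 matched the order of the 33 genes only in part. Vehicle 5 had the most Cst7, 144 CPM, and was among the top 3 for 6 genes. Next came lemborexant 6 (131 CPM of Cst7), vehicle 3 (122 CPM) and lemborexant 5 (94.2 CPM), which were among the top 3 for 13, 18 and 21 genes. Vehicle 7 had 58.0 CPM of Cst7 and was among the top 3 for 25. Lemborexant 3 and 8, with the least Cst7 of the 15 (16.4 and 17.7 CPM), had a median place of 8. The extreme libraries also stood apart in other ways. Lemborexant 7 had 1173 CPM of Pmch, the hypothalamic peptide melanin-concentrating hormone, against at most 2.41 CPM elsewhere, and the lowest sums of homeostatic (565 CPM) and disease-associated (356 CPM) microglia markers among the 15. In vehicle 7 the hepatocyte markers summed to 1143 CPM, against at most 44.2 in the others, and its red blood cell markers to 277 CPM. Whether other tissue in these libraries bears on the 33 genes was not tested.

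**Figure D3:**
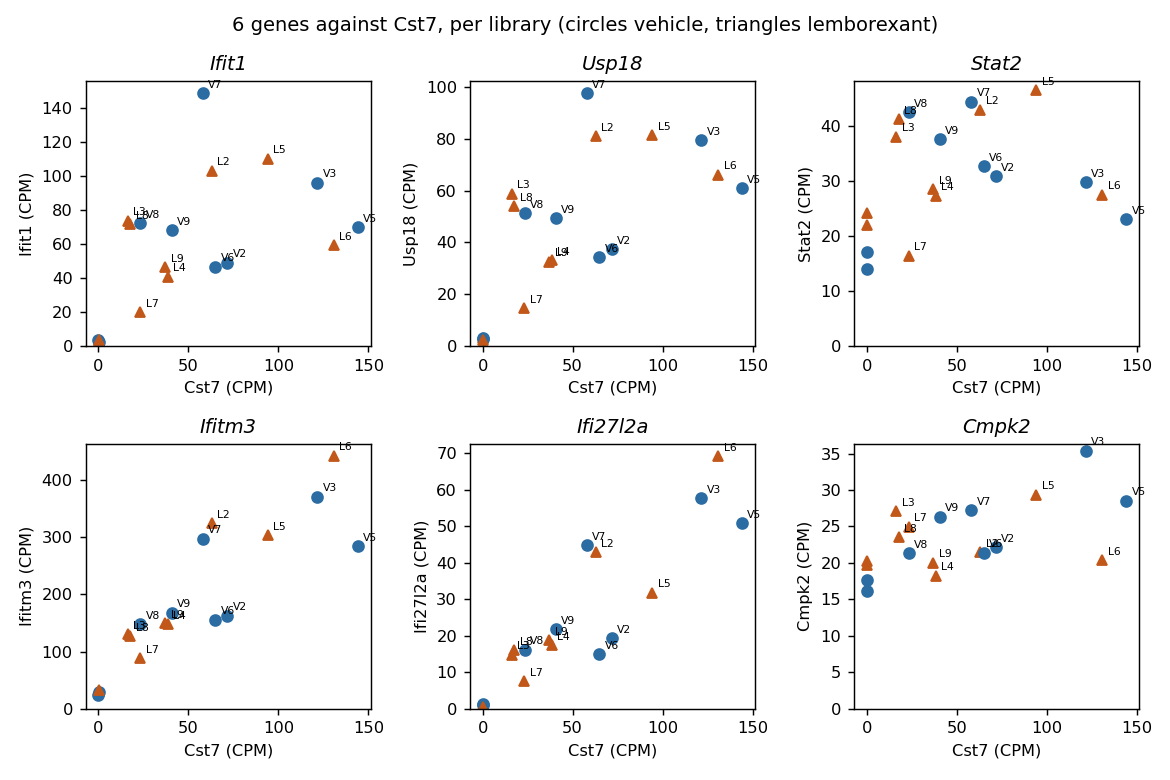
CPM of 6 genes (vertical axes, linear) against CPM of Cst7 (horizontal axis) in the 19 libraries, with circles for vehicle and triangles for lemborexant. The 4 unlabelled points near a Cst7 of 0 are vehicle 1 and 4 and lemborexant 1 and 10, and among the labelled libraries vehicle 7 is highest for Ifit1 and Usp18, lemborexant 6 for Ifitm3 and Ifi27l2a.

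The comparison set by the design is lemborexant against vehicle. None of the 33 genes passed an adjusted p of 0.05 for treatment (edgeR's quasi-likelihood test), and 0 had an unadjusted p under 0.05. Over all 19105 genes, 498 passed (2.61%), 182 higher and 316 lower, and 25.7% had an unadjusted p under 0.05. Among the 33, 11 fitted changes were positive and 22 negative, with a median of -0.09 on the log2 scale against 0.03 for all genes. DESeq2 also called 0 of the 33, beside 5.01% of all genes. A p that misses the threshold does not show that the groups are alike, and the standard errors here were wide.

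Isg15 had the lowest adjusted p of the 33. It read 1.45 to 43.6 CPM (median 22.3) in lemborexant libraries and 1.81 to 74.7 CPM (median 22.7) in vehicle libraries. Vehicle 3, 7 and 5, at 74.7, 73.3 and 46.1 CPM, lay above every lemborexant library, and the other 6 vehicle libraries lay within the lemborexant range. The means were 21.2 ± 15.4 CPM (SD, n = 10) and 31.9 ± 27.3 CPM (SD, n = 9). The fitted log2 change was -0.59 with an SE of 0.64 (adjusted p = 0.575 by edgeR). Bst2 read 4.43 to 87.7 CPM (median 29.4) and 3.92 to 91.2 CPM (median 35.3), a log2 change of -0.37 ± 0.55 (edgeR adjusted p = 0.696). Irf7 read 2.82 to 81.3 CPM (median 38.6) and 3.53 to 127 CPM (median 44.3), a log2 change of -0.38 ± 0.62 (edgeR adjusted p = 0.723). Both differences were smaller than their standard errors. Herc6 was the one of the 5 genes with the smallest p whose fitted change was positive. It read 7.56 to 29.5 CPM (median 18.6) and 3.998 to 23.1 CPM (median 16.9), a log2 change of 0.18 ± 0.30 (edgeR adjusted p = 0.733). Cmpk2, the least variable gene, read 18.3 to 29.3 CPM (median 20.95) and 16.2 to 35.4 CPM (median 22.2). Its change of -0.09 ± 0.13 (edgeR adjusted p = 0.669) had the smallest standard error of the 33, and its sign turned when only library totals were used for scaling.

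**Figure D4:**
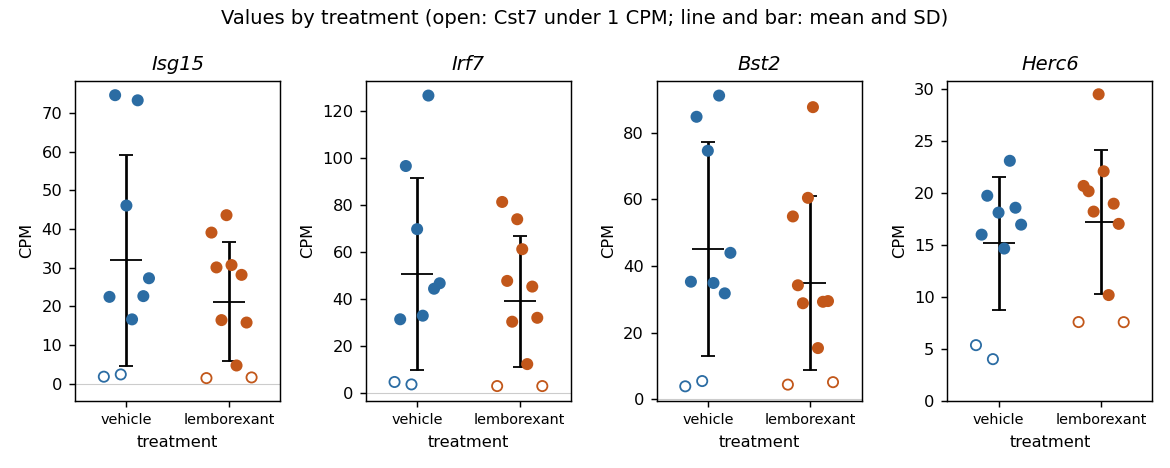
CPM (vertical axis) of 4 genes in each library by treatment (horizontal axis), with open points for the 4 libraries with Cst7 under 1 CPM and a line and bar for mean and SD of 9 vehicle and 10 lemborexant libraries. Each group holds 2 open points at the bottom, and the filled points of the groups overlap for all 4 genes.

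Leaving out the 4 Cst7-low libraries narrowed the errors and called none of the 33, beside 2.71% of 19230 genes. Isg15 then averaged 26.1 ± 12.9 CPM (SD, n = 8) in lemborexant and 40.4 ± 24.7 CPM (SD, n = 7) in vehicle libraries. Its log2 change was then -0.65 with an SE of 0.40 (adjusted p = 0.336 by edgeR). Of the 33 fitted changes 9 were positive and 24 negative, with a median of -0.16. The signs turned with single libraries. Of the 33 changes fitted with only vehicle 7 left out, 23 were positive (median 0.08), and with only lemborexant 5 left out, 3 were (median -0.26). With each nearly alike pair summed, 21 were positive and 12 negative (median 0.08), and the fit then called 0 of 19226 genes, 4101 of which had an unadjusted p under 0.05. Without the 4 Cst7-low libraries, lemborexant 7 and vehicle 7, 25 were positive and 8 negative (median 0.10), with a lowest adjusted p of 0.233.

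**Figure D5:**
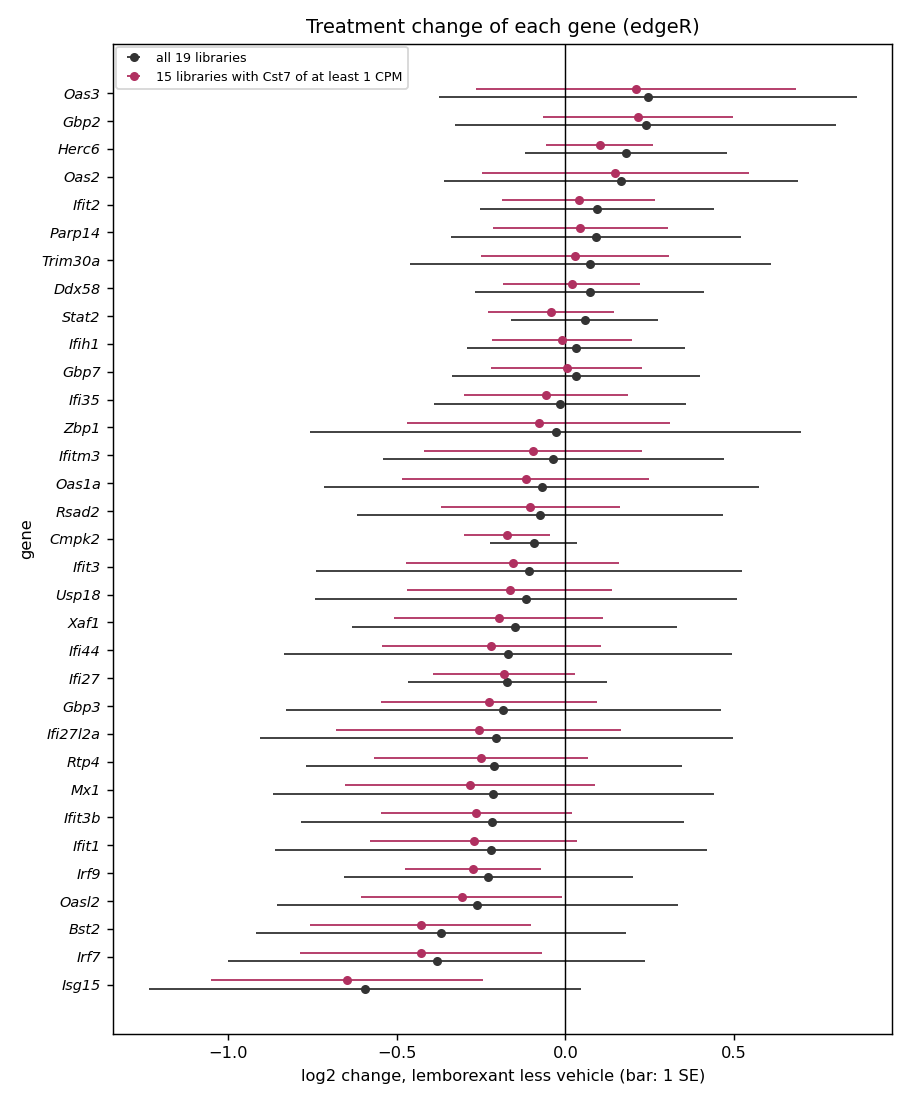
Log2 change of each gene (vertical axis) from vehicle to lemborexant (horizontal axis) by edgeR, with a bar of 1 standard error, over all 19 libraries (black) and over the 15 with Cst7 of at least 1 CPM (red). The changes run from Isg15 at the bottom, -0.59, to Oas3 at the top, 0.24, and the bars are shorter in red.

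Other genes of the pathway were taken from 6 lists with 108 names, of which 86 were tested. The interferons themselves were at the edge of detection. Of 21 ligand genes 0 passed the filter, and 12 had no read in any library. Ifng, the interferon gamma gene, had at most 11 reads, in lemborexant 7, and Ifnb1 at most 6, in vehicle 9.

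Among receptors, 1 of 5 tested genes fell with lemborexant, beside 1.65% of all genes tested. Ifngr2, the signalling chain of the interferon gamma receptor, read 39.98 to 70.05 CPM (median 63.7) in lemborexant and 65.1 to 114 CPM (median 80.2) in vehicle libraries, so that the ranges overlapped only narrowly. Its means were 59.4 ± 10.6 CPM (SD, n = 10) and 85.9 ± 16.6 CPM (SD, n = 9). On the log2 scale it fell by 0.53, with an SE of 0.12 (adjusted p = 0.0298 by edgeR). The sign was the same in 31 alternatives, from -0.64 to -0.30, but 10 of them ended the call: adjusted p was 0.0802 with the nearly alike pairs summed, 0.0590 without lemborexant 4, 0.0584 without lemborexant 9, 0.0628 without vehicle 4 and 0.0554 without vehicle 5. Ifngr1, the ligand-binding chain, had a log2 change of 0.19 ± 0.23 (edgeR adjusted p = 0.639). Markers of other brain regions were read beside it. Foxp2, of 5 thalamus markers, rose, with medians of 11.98 CPM in lemborexant and 2.07 CPM in vehicle libraries (edgeR adjusted p = 0.0160). Its highest value, 20.1 CPM, was in lemborexant 7, and with the nearly alike pairs summed 0 of 19226 genes were called. Lct, of 6 hippocampus markers, read 1.55 to 15.1 CPM and 14.5 to 26.0 CPM (edgeR adjusted p = 0.0581). The hippocampus markers summed to medians of 117 and 156 CPM and the thalamus markers to 122 and 68.6 CPM. Their part in the change of Ifngr2 was not tested.

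In the remaining lists 0 of 81 genes passed, beside 2.61% of all genes tested, a share at which few calls would fall in lists of this size. Of signal transduction (9 tested), Jak1, a kinase of both receptors, had a log2 change of -0.12 ± 0.07 (edgeR adjusted p = 0.292) and Irf2, a repressor of interferon genes, of 0.12 ± 0.10 (0.461). Of nucleic acid sensing (13 tested), Mavs, the mitochondrial adaptor of RIG-I and MDA5, had a log2 change of 0.37 ± 0.16 (edgeR adjusted p = 0.161) and Adar, which edits double-stranded RNA, of 0.28 ± 0.14 (0.216). Neither list holds a called gene, and these 2 of each had the smallest p-values. Of 5 negative regulators, Socs1, an inhibitor of Jak kinases, had a log2 change of -0.73 ± 0.40 at no more than 1.13 CPM in any library (edgeR adjusted p = 0.244) and Pias1, an inhibitor of cytokine signalling, of 0.15 ± 0.13 (0.473). Of 54 other interferon-induced genes, Ifitm1, a relative of Ifitm3, lay nearest to the threshold. It read 2.54 to 12.4 CPM (median 5.69) and 1.61 to 4.5 CPM (median 2.67), a log2 change of 0.99 ± 0.27 (edgeR adjusted p = 0.0515), and it passed in 10 of 31 alternatives. Mndal, of the family of DNA-binding Ifi200 proteins, had one of -0.44 ± 0.24 (edgeR adjusted p = 0.252).

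Along the Cst7 division, 60 of the 86 pathway genes were higher in the 15 libraries without overlap and 0 lower, beside 6.33% and 2.27% of all genes. The counts varied by list: 45 of 54 other interferon-induced genes did so, but 2 of 5 receptors, 4 of 9 signal transduction genes, 6 of 13 sensing genes and 3 of 5 negative regulators. Among genes taken for their role, Irf1, which acts downstream of interferon gamma, read 8.701 to 10.6 CPM in the 4 against 12.3 to 29.4 CPM (median 18.6). Ratios of medians were 1.88 for Irf1, 1.22 for Ifnar1, 1.89 for Ifnar2, 1.91 for Ifngr1 and 0.887 for Ifngr2. Ifnar1 read 21.4 to 25.7 CPM against 24.9 to 34.5 CPM (median 27.5), and Ifnar2 9.08 to 16.7 CPM against 16.1 to 30.8 CPM (median 20.8). Ifngr1 read 21.2 to 26.9 CPM against 36.9 to 94.3 CPM (median 48.3), without overlap, and Ifngr2 69.3 to 108 CPM against 39.98 to 114 CPM (median 65.2). The motif GAAANNGAA was in 0 of 5 receptor windows and in 25 of 40 windows (62.5%) of the other interferon-induced genes. For TTCNNNGAA the counts were 2 of 5 receptor windows, 10 of 20 ligand windows and 5 of 40 windows (12.5%) of the other interferon-induced genes. The last share is near the 9.55% of all genes.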

How the data were processed

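The members and gene lists were chosen with earlier results of these data known. Cortical RNA was turned into libraries by a Takara SMARTer Ultra Low kit, per the labels' protocols. The submitters' processing notes name bcl2fastq, DRAGEN 3.9.3-8 and GRCm38; annotation release and strand setting were not found in the labels or headers. Per the file headers, the tables the authors deposited give every one of 55487 genes an estimated count and a TPM value. Estimated counts were rounded for the tests, and the deposited TPM values served to compare levels between genes and in 2 alternatives. Groups came from the treatment labels (10 and 9 libraries, although the design text speaks of triplicates), and replicates were numbered in accession order.

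The main test was edgeR 4.0.16's robust quasi-likelihood test (R 4.3.3) with TMM factors and edgeR's expression filter, two-sided. Its p-values were adjusted by Benjamini and Hochberg's method over all 19105 tested genes, with 0.05 as the threshold. CPM used TMM factors, and the SE is the log2 change divided by the square root of F. Tested on simulated data for this comparison, 76.5% of 200 genes changed 2-fold were recovered among 18840 genes, with 2 false calls in 155. The changed genes were drawn from all genes of at least 1 CPM, and the libraries were simulated as independent. That share was not measured for the interferon-stimulated genes, whose standard errors ran from 0.13 (Cmpk2) to 0.73 (Zbp1) on the log2 scale. Alternatives were RLE factors, library totals, no filter, DESeq2 1.42.0, limma 3.58.1 on log2 values of TPM plus 1 or plus 0.1 (mean TPM of 1 or more), nearly alike pairs summed, Cst7-low libraries left out, library number as covariate or over 1000 alone, and each library left out. The fit without the Cst7-low libraries, lemborexant 7 and vehicle 7 was added after seeing the data.

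GENCODE on GRCm38 supplied symbols and positions (55227 genes named), and RefSeq on GRCm38.p6 the promoter windows. Values are given for the 5 of the 33 genes with the smallest p for treatment, the 6 with the highest TPM, the 6 with the widest range, every member that did not overlap along Cst7, and, of each pathway list, those called and the 2 with the smallest p. Irf1, Ifnar1, Ifnar2 and Ifngr1 were added for their role after their values were seen. The values of 1 pathway gene are not reported here. Precision was limited by the spread between libraries and, for Zbp1, Oas3 and Mx1, by read number, so these 3 have no ratio.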

Additional observations from a re-analysis of the deposited data

How the results depend on the processing

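No member was called for treatment in any of the 31 alternatives, and the lowest adjusted p of a member was between 0.233 and 0.691. The number of all genes called moved from 498 to 254 without a low-count filter, 1892 with DESeq2, 118 and 26 with limma on log2(TPM + 1) and log2(TPM + 0.1), 294 with the library number series as covariate, 8 in the libraries numbered over 1000, and 0 with the nearly alike pairs summed, with or without the Cst7-low libraries. Leaving out each library gave 31 (without lemborexant 9) to 1274 (without vehicle 8), with 35 without lemborexant 4, 39 without vehicle 4 and 76 without vehicle 5. With library totals alone the calls were 286 higher and 119 lower, against 182 and 316, the median of all genes moved to 0.15 (0.18 and 0.20 on the TPM scales), and 18 of the 33 genes had positive changes. The median of the 33 less that of all genes was -0.12, and -0.29 to 0.05 without each library. Cmpk2 turned to a log2 change of 0.040, 0.10 and 0.11, and Jak1 to 0.0035, 0.13 and 0.13, with library totals, log2(TPM + 1) and log2(TPM + 0.1). The count of 30 genes that did not overlap along Cst7 stayed at 30 with library totals and with TPM. It was also 30 with a Cst7 threshold of 2 CPM and with summed pairs, and 30 or 31 without each library. These last settings could hardly lower the count. A threshold of 2 CPM gives the same division, and leaving out a library or summing a pair does not widen a range. The causes were not tested. No paired analysis was possible because the labels give no replicate numbers that the groups share. Every lemborexant library number lies below every vehicle number within each of the 2 ranges of numbers, so number and treatment cannot be told apart there.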

Other observations

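Ratios along the Cst7 division were computed only for genes with at least 20 reads in the 4 Cst7-low libraries together. Among genes of the interferon lists with a ratio, the largest were not those of the 33 genes. They belonged to chemokines among the other interferon-induced genes, picked out after their values were seen. Genes with fewer reads, such as Zbp1, Oas1g, Ifi204 and Ifi211, have no ratio and were not ranked. Cxcl10, which draws T cells through Cxcr3, read 0.108 to 0.497 CPM in the 4 Cst7-low libraries and 5.17 to 34.2 CPM (median 17.4) in the other 15, a ratio of medians of 60.2. Ccl5, which attracts T cells and monocytes, read 0.141 to 0.398 CPM against 3.83 to 52.2 CPM (median 17.9), a ratio of 48.5. Ccl12, a monocyte attractant, read 0.344 to 1.08 CPM against 7.87 to 71.03 CPM (median 20.4), a ratio of 39.5. Cxcl9, an answer to interferon gamma, had no read in any of the 4 libraries and 0.306 to 4.36 CPM (median 1.67) in the 15. As for 31 of the 33 genes, lemborexant 7 was the lowest of the 15 for all 4 chemokines. For Cxcl10 the highest was vehicle 7, and its change with lemborexant was -0.17 ± 0.74 on the log2 scale (edgeR adjusted p = 0.906).

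Irf8, a factor of the microglial lineage, and Ptpn6, a phosphatase of blood-derived cells and microglia, had the largest ratios among the signal transduction genes and the negative regulators: Irf8 read 5.31 to 7.01 CPM against 20.8 to 60.98 CPM (median 37.8) and Ptpn6 4.19 to 6.57 CPM against 13.4 to 52.3 CPM (median 32.3). The sums of microglia markers were also lower in the Cst7-low libraries, and the part of microglia in the values of Irf8 and Ptpn6 was not tested.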
